A study of Brachypodium distachyon with 24 samples.

Results

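The genes described here were transcribed in leaves of the Brachypodium distachyon accession Bd3-1 and had no count in leaves of the accession Bd21. A gene was included where the sum of its 2 allele columns was 0 in all 6 Bd21 libraries and its mean over the 8 Bd3-1 libraries was at least 1 CPM (counts scaled to a common library sum). Of 32439 genes in the deposited table, 48 met both conditions. They were 0.148% of all genes and 0.252% of the 19083 genes with a mean of at least 1 CPM in Bd3-1. The members were thus chosen by their Bd21 and Bd3-1 totals, and the contrast between the accessions is given as a description, with no test. The opposite list, genes with at least 1 CPM in Bd21 and no count in any Bd3-1 library, held 167 genes. It required no count in 8 libraries where the 48 genes required none in 6, at another depth, so the sizes of the lists are not compared.

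RNA was sequenced from the youngest fully expanded leaves of F1 hybrid, Bd3-1 and Bd21 plants. Drought plants were dried from the 33rd day after sowing to 55% of the water content of saturated and drained soil over 6 days, and control plants were kept at 85%. The groups were F1 drought (n = 5), F1 control (n = 5), Bd3-1 drought (n = 3), Bd3-1 control (n = 5), Bd21 drought (n = 3) and Bd21 control (n = 3). The F1 plants came from Bd3-1 flowers pollinated with Bd21, and they were grown in another experiment than the parental plants, apart from 2 Bd3-1 control plants that the labels do not single out. Generation and experiment can therefore not be told apart in a comparison of F1 with Bd3-1 levels.

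Bd21 is the accession from which the reference genome of the species was made, and Bd3-1 is a second inbred line. Inbred accessions of a grass differ by base changes, by insertions and deletions and by the presence or absence of whole genes, and a transcript can be missing from an accession because the gene is absent, because it is not transcribed, or because it is transcribed in another organ or condition. In an F1 hybrid both parental copies share a cell, so allele counts can be read side by side in the same plant. Read assignment also matters for such genes, because a read that fits several gene copies equally well is divided among them. The gene models are those of the Bd21 reference, so each of the 48 genes has a model in the accession in which it had no count. The identifiers carry no gene names in the sources used here, and the genes are therefore called by identifier and no function is given.

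Library totals were 10607196 to 38713326 counts in F1, 17418646 to 42354206 in Bd3-1 and 6905973 to 30224270 in Bd21. The 6 Bd21 libraries held 101025605 counts in all, and a count of 0 over them allows up to 3 counts, or 0.0297 CPM. This limit covers counting error only. As a check of the treatment labels, Bradi1g51770, a gene the study names for drought, was at 64.8 to 102.8 CPM in F1 drought against 0 to 4.18 CPM in F1 control plants, at 14.4 to 47.4 CPM in Bd3-1 drought against 0.0731 to 1.91 CPM in Bd3-1 control plants, and at 59.4 to 119.3 CPM in Bd21 drought against 3.24 to 3.90 CPM in Bd21 control plants. The deposited values are not normalized, and the labels do not say whether replicates were plants of 1 sowing, so p-values measure the spread between these samples.

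Most of the 48 genes had low counts, and a handful did not. CPM is not corrected for gene length, so the order of genes given here is one of counts and not of transcripts. In Bd3-1, 8 genes averaged at least 10 CPM, 7 averaged 5 to under 10 CPM, 17 averaged 2 to under 5 CPM and 16 averaged 1 to under 2 CPM. The median of the means was 3.01 CPM, against 14.7 CPM over all genes with at least 1 CPM in Bd3-1. Single Bd3-1 libraries held counts for 41 to 48 of the genes, and 35 of the genes were detected in all 8. In the F1 hybrid, 35 to 45 of the genes were detected in a drought library and 28 to 43 in a control library. Of the 48 genes, 47 had a count in at least 1 F1 plant, 40 in at least 7 and 19 in all 10.

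**Figure D1:**
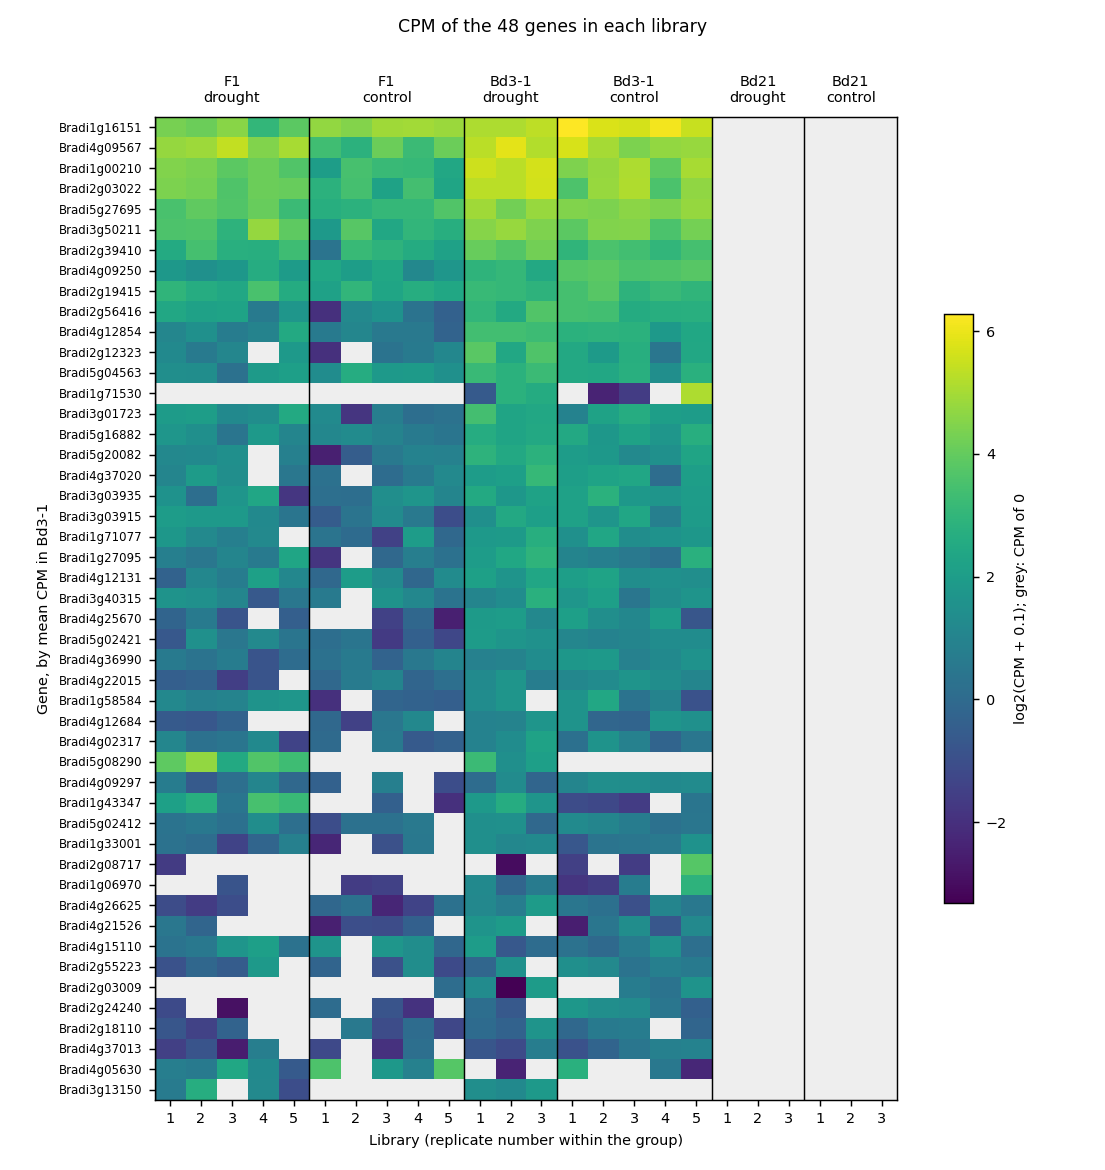
Each row is 1 of the 48 genes, ordered by mean CPM in Bd3-1, and each column is 1 library, with colour for log2(CPM + 0.1) and grey for a CPM of 0. The Bd21 columns are grey throughout because the selection required it, the F1 columns are mostly filled in the upper rows, and Bradi5g08290 and Bradi3g13150 are filled in drought columns only.

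The gene with the highest counts was Bradi1g16151, on chromosome 1 by its identifier. It averaged 50.6 CPM over the 8 Bd3-1 libraries. Its counts summed over these libraries, scaled by their summed totals, were at least 1668-fold above the limit of 3 counts over the Bd21 libraries. The other bounds against Bd21 were made from summed counts in the same way, not from the mean CPM. Bradi4g09567 followed with 36.7 CPM in Bd3-1, at least 1351-fold above that limit. Both were detected in all 8 Bd3-1 and all 10 F1 plants.

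Bradi1g00210 averaged 33.5 CPM in Bd3-1 (at least 1139-fold above the Bd21 limit). Bradi2g03022 averaged 29.9 CPM (at least 1013-fold). Bradi5g27695 averaged 24.1 CPM (at least 795-fold) and had the lowest coefficient of variation of the 48 genes over the Bd3-1 libraries, at 16.4%. These 5 genes and Bradi3g50211, at 20.3 CPM (at least 704-fold), lay well above the rest.

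Bradi2g39410 averaged 12.2 CPM in Bd3-1, Bradi4g09250 10.9 CPM, Bradi2g19415 9.16 CPM and Bradi2g56416 8.26 CPM. For these 10 genes with the highest counts the bound on the ratio of Bd3-1 to Bd21 was 270-fold or more. At the other end, the bound for Bradi4g37013, with 1.05 CPM in Bd3-1, was 30.9-fold. A gene near the minimum of 1 CPM would have given few counts in the shallowest Bd21 library even if it were transcribed there, so the absence is better bounded for the genes with high counts.

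The members closest to the CPM minimum were Bradi3g13150 at 1.04 CPM, Bradi4g05630 at 1.04 CPM and Bradi4g37013 at 1.05 CPM. Just below it, and so left out, were Bradi2g36788 at 0.997 CPM, Bradi4g22019 at 0.994 CPM and Bradi1g33015 at 0.940 CPM. On the Bd21 side, 4 genes were kept out by at most 1 count. They included Bradi4g25826, with 7.17 CPM in Bd3-1 and 0.00405 of an estimated count in Bd21, and Bradi4g38932 and Bradi1g43322, with 1.97 and 1.92 CPM in Bd3-1 and 1 count each in Bd21. Allowing up to 10 counts over the Bd21 libraries gave 74 genes, so the border of the list is gradual.

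The spread over Bd3-1 plants was wide for some genes. The median coefficient of variation was 45.1%, and in 5 of the 48 genes a single library held over 50% of the summed Bd3-1 CPM, as did 0.938% of all genes with at least 1 CPM. Bradi1g71530 was at 0.564, 6.99 and 5.99 CPM in Bd3-1 drought plants and at 0, 0.0931, 0.230, 0 and 33.8 CPM in Bd3-1 control plants, and it was the 1 gene with no count in any F1 plant. The value of 33.8 CPM came from Bd3-1 control replicate 5. The same plant was the highest for Bradi2g08717, at 13.4 CPM where no other Bd3-1 plant exceeded 0.256 CPM, and for Bradi1g06970, at 7.23 CPM where no other exceeded 2.26 CPM; these 2 genes were picked out after their values were seen. Without that library 48 genes again met both conditions, of which 45 were in the list.

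Reads shared with other genes bear on several of the members with high counts. A gene total that is not a whole number means that reads were divided between genes. With a tolerance of 0.01, 39 of the 48 genes had whole totals in every library with a count, and 7 had whole totals in under 50% of them, against 83.5% and 9.98% of all genes with at least 1 CPM in Bd3-1. The 7 were Bradi1g16151, Bradi1g00210, Bradi2g03022, Bradi5g27695, Bradi2g39410, Bradi5g20082 and Bradi2g03009, so 5 of the 7 members with the highest counts are among them and their levels are uncertain.

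For some of these the partner could be read from the counts, because the fractions of 2 genes that share reads with each other add up to whole numbers. The totals of Bradi1g00210 and Bradi5g20082, both among the 48 genes, summed to a whole number in 15 of 15 libraries with a fractional total. The next best partner of Bradi1g00210 did so in 4. These members on chromosomes 1 and 5 are therefore not independent of each other. The totals of Bradi5g27695 and Bradi1g00370 summed to a whole number in 16 of 16 libraries, and Bradi1g00370 was transcribed at 26.4 to 69.9 CPM in Bd3-1 plants and 29.0 to 55.4 CPM in Bd21 plants. The totals of Bradi2g39410 and Bradi2g39240 did so in 17 of 17, and Bradi2g39240 was at 25.5 to 67.1 CPM in Bd3-1 plants and 20.6 to 87.5 CPM in Bd21 plants. Both partners were thus transcribed in the accession in which the member had no count. For Bradi1g16151 the best partner was the gene Bradi1g16160, close to it in identifier order, in 9 of 17 libraries, and no gene completed Bradi2g03022 in more than 4 of 18.

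Drought and control plants were compared to ask whether genes that a single parent expresses respond to soil drying, and whether they do so alike in that parent and in the hybrid. The summed CPM of the 48 genes was 187.2 to 225.9 in F1 drought plants and 107.6 to 137.8 in F1 control plants. In Bd3-1 it was 375.3 to 414.5 in drought plants and 257.3 to 362.3 in control plants. The groups did not overlap in either genotype. These sums carry a shift of the whole table: the median gene was 1.28-fold higher in drought than in control in F1 and 1.13-fold higher in Bd3-1 by library sum, and 1.03-fold and 0.992-fold after trimmed mean of M-values (TMM) scaling. The tests below use TMM scaling.

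The tests were made in a single edgeR quasi-likelihood fit over all 24 libraries and 22629 genes with a count in more than 10 libraries. The filter passed 42 of the 48 genes. Left out were Bradi1g06970, Bradi1g71530, Bradi2g03009, Bradi2g08717, Bradi3g13150 and Bradi5g08290, which had counts in too few plants. Since no Bd21 library could count toward the filter, a member passed on its F1 and Bd3-1 plants alone.

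In the F1 hybrid, 5 of the 42 genes passed an adjusted p of 0.05, which is 11.9%, against 14.9% of all genes tested. Of these, 4 rose with drought (7.58% of all genes rose) and 1 fell (7.31% of all genes fell). The share called was near the background, and the members do not stand out for the number that responded. The median log2 change was 0.27 over the 42 genes and 0.04 over all genes. It was above 0 in 29 of the 42 and below in 13, against 52.4% of all genes above 0. At an unadjusted edgeR p under 0.05 there were 8 of the 42 genes, 6 higher and 2 lower. Over all genes tested the share was 27.3%, with 14.3% higher and 13.0% lower. DESeq2 called 6 of the 42, against 18.5% of all genes.

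In Bd3-1, 0 of the 42 genes passed, against 0.72% of all genes tested (0.433% higher and 0.287% lower in drought). At an unadjusted edgeR p under 0.05 there were 6, 3 higher and 3 lower in drought. Over all genes tested the share was 12.4%, with 6.11% higher and 6.26% lower. DESeq2 gave an adjusted p for 7 of the 42 genes, of which it called 0, and none (NA) for the other 35, which it could therefore not call; 6 of the 42 had an unadjusted DESeq2 p under 0.05. The median log2 change was 0.17 over the 42 genes and -0.01 over all genes. It was above 0 in 26 of the 42 and below in 16, against 48.7% of all genes above 0. Fewer drought plants were sequenced in Bd3-1 than in F1, and fewer genes passed over the whole table.

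The values of drought and control plants did not overlap, with drought higher, in 8 of the 42 genes in Bd3-1 (19.0%, against 10.7% of all genes) and in 5 in F1 (11.9%, against 8.72%). With drought lower they did not overlap in 2 genes in Bd3-1 (4.76%, against 2.36%) and in 1 in F1 (2.38%, against 2.5%). These CPM values are by library sum and include the shift given above, so higher values are favoured.

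Bradi5g08290 had counts in drought plants only. It was at 14.8, 26.1, 5.55, 12.8 and 9.71 CPM in F1 drought plants and at 0 in all 5 F1 control plants. Among Bd3-1 plants it was at 9.32, 2.64 and 4.14 CPM in drought plants and at 0 in all 5 control plants. Every drought plant of both genotypes was thus above every control plant, while Bd21 drought plants also had no count. Against the limit of 3 counts over the control group, the gene was at least 574-fold higher in drought in F1 and at least 186-fold higher in Bd3-1. It failed the filter because 8 libraries held counts. In the fit without a filter it passed in F1 (edgeR adjusted p = 2.04e-05) and in Bd3-1 (edgeR adjusted p = 0.000561). The gene reached the CPM minimum through its Bd3-1 drought plants alone. Its Bd3-1 bound and p-value thus rest on values that the selection used and are a description, not a test.

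Bradi3g13150 showed the same kind of distribution at lower levels. It was at 1.497, 6.18, 0, 2.19 and 0.377 CPM in F1 drought plants and at 0 in all 5 F1 control plants. Among Bd3-1 plants it was at 2.59, 2.27 and 3.47 CPM in drought plants and at 0 in all 5 control plants. One F1 drought plant, replicate 3, had no count. The bound was at least 83.99-fold higher in drought in F1 and at least 94.0-fold in Bd3-1, and in the fit without a filter the edgeR adjusted p was 0.0106 in F1 and 0.0634 in Bd3-1, so the gene passed in F1 and did not pass in Bd3-1. Bradi3g13150 too reached the CPM minimum through its Bd3-1 drought plants alone, so its Bd3-1 values are a description.

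Bradi1g43347 had low counts in some control plants and had the largest fitted drought change in F1 among the 42 genes. It was at 4.30, 6.37, 1.24, 11.04 and 9.05 CPM in F1 drought plants and at 0, 0, 0.681, 0 and 0.155 CPM in F1 control plants, groups that do not overlap. The log2 change was 4.93 (SE 1.21, edgeR adjusted p = 0.00906). Among Bd3-1 plants it was at 3.52, 6.04 and 3.13 CPM in drought plants and at 0.366, 0.326, 0.230, 0 and 1.21 CPM in control plants, also without overlap, with a log2 change of 3.19 (SE 1.17, edgeR adjusted p = 0.228). Its Bd3-1 drought plants also carried it over the CPM minimum, as its Bd3-1 control mean was 0.427 CPM. In Bradi5g08290, Bradi3g13150 and Bradi1g43347 the 2 allele columns were equal in every library, so none of their counts could be assigned to a parental copy. Such equal columns were not particular to these genes. They were found in 10 members (20.8%) and in 59.9% of all genes with at least 1 CPM in Bd3-1. A link between equal columns and the drought response was not tested.

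The other genes that rose in F1 were among the members with high counts. Bradi1g00210 was at 21.8, 20.2, 14.6, 17.5 and 12.7 CPM in F1 drought plants and at 3.98, 11.1, 8.98, 8.55 and 5.27 CPM in F1 control plants. The groups did not overlap, and the log2 change was 0.92 (SE 0.22, edgeR adjusted p = 0.00815). In Bd3-1 it was at 47.3, 39.3 and 51.2 CPM in drought plants and at 21.3, 26.9, 34.4, 14.997 and 32.6 CPM in control plants. These groups did not overlap either, and the log2 change of 0.65 (SE 0.25) did not pass (edgeR adjusted p = 0.249).

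Bradi2g03022 was at 21.03, 19.2, 12.5, 17.2 and 16.5 CPM in F1 drought plants and at 7.16, 10.8, 4.56, 10.4 and 4.87 CPM in F1 control plants. Its log2 change was 0.88 (SE 0.28, edgeR adjusted p = 0.0383), and the groups did not overlap. In Bd3-1 it was at 38.7, 38.6 and 49.3 CPM in drought plants and at 12.1, 27.5, 35.3, 11.6 and 25.8 CPM in control plants, again without overlap, with a log2 change of 0.75 (SE 0.31) that did not pass (edgeR adjusted p = 0.299). In F1 the call was lost without F1 drought replicate 1, 2, 4 or 5 or F1 control replicate 1, 3 or 5, with an adjusted p of 0.0239 to 0.107 over its 16 alternatives.

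Bradi4g09567 was at 26.9, 29.4, 42.4, 22.0 and 32.3 CPM in F1 drought plants and at 10.2, 7.03, 17.4, 9.14 and 17.5 CPM in F1 control plants, which did not overlap. Its log2 change was 0.98 (SE 0.32, edgeR adjusted p = 0.0456). In Bd3-1 the drought plants, at 39.1, 60.02 and 36.3 CPM, overlapped with the control plants, at 52.0, 31.5, 20.7, 26.5 and 27.9 CPM, and the log2 change was 0.30 (SE 0.36). In F1 the call was lost without F1 drought replicate 1, 2, 3 or 5, without F1 control replicate 1, 2 or 4, and with the genotypes compared fitted alone (adjusted p 0.0240 to 0.114 over 16 alternatives).

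Bradi1g16151, the member with the highest counts, was the gene that fell. It was at 19.6, 17.4, 23.8, 8.05 and 14.4 CPM in F1 drought plants and at 26.4, 22.8, 30.4, 31.04 and 28.6 CPM in F1 control plants, so the highest drought plant lay just above the lowest control plant. The log2 change was -1.06 (SE 0.27, edgeR adjusted p = 0.0112). In Bd3-1 it was at 34.5, 34.5 and 40.2 CPM in drought plants and at 77.9, 53.7, 51.2, 68.6 and 44.4 CPM in control plants, without overlap, with a log2 change of -0.92 (SE 0.31) that did not pass (edgeR adjusted p = 0.191). The shift by library sum runs against this direction.

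Bradi4g09250 was the other gene with drought plants below all control plants in Bd3-1, at 7.60, 8.38 and 5.48 CPM against 13.3, 14.6, 11.9, 12.5 and 13.6 CPM. Its log2 change was -1.07 (SE 0.39, edgeR adjusted p = 0.225). In F1 its drought plants, at 3.37, 2.72, 3.29, 6.03 and 3.77 CPM, overlapped with the control plants, at 5.17, 4.005, 5.24, 2.16 and 3.18 CPM, and the log2 change was -0.43 (SE 0.33, edgeR adjusted p = 0.461).

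**Figure D2:**
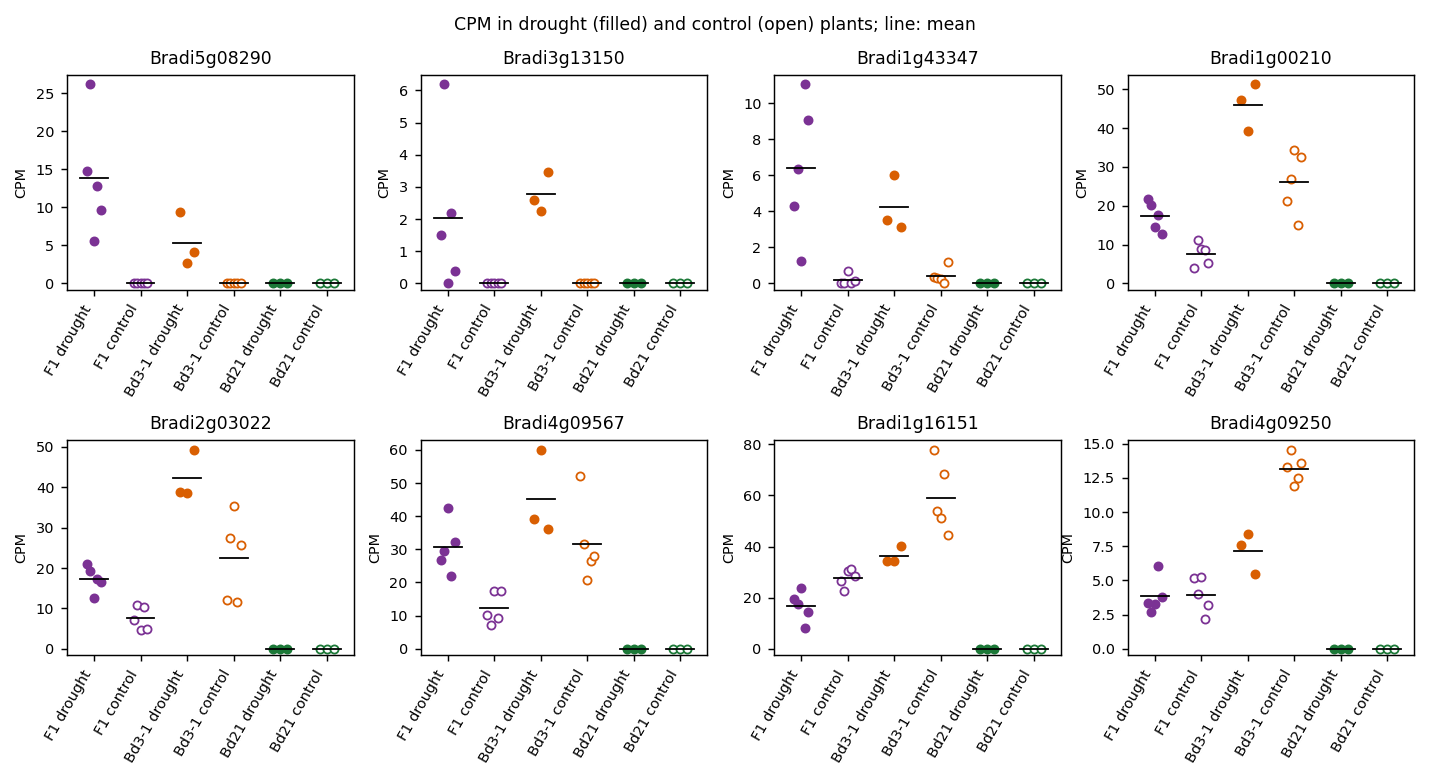
CPM of 8 members in each plant of the 6 groups, with drought as filled and control as open points and the group mean as a line. Bradi5g08290 and Bradi3g13150 have no count in any control plant, Bradi1g16151 is lower in drought plants of F1 and Bd3-1, and all Bd21 points lie at 0.

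The difference between the drought responses of F1 and Bd3-1 was tested directly. Of the 42 genes, 0 passed an adjusted p of 0.1, as did 0% of all genes tested, so at this number of plants the test called nothing in the whole table. At an unadjusted p under 0.05 there were 0 of the 42 genes, against 4.14% of all genes. DESeq2 called 0, with 3 at an unadjusted p under 0.05. No difference in response between the hybrid and its parent could be shown for these genes.

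The genes with the highest fitted difference were Bradi4g05630, at 3.60 (SE 2.31), Bradi1g58584, at 2.56 (SE 1.59), and Bradi1g43347, at 1.74 (SE 1.61), on the log2 scale, with a higher response in F1. Those with the lowest were Bradi4g26625, at -2.82 (SE 1.44), Bradi2g18110, at -1.63 (SE 1.92), and Bradi4g22015, at -1.59 (SE 1.06). All are low in counts. Bradi1g58584 was at 2.15, 1.71, 1.87, 2.98 and 3.21 CPM in F1 drought plants against 0.155, 0, 0.785, 0.720 and 0.659 CPM in F1 control plants, while in Bd3-1 it was at 2.42, 3.09 and 0 CPM in drought plants and at 2.998, 5.30, 1.15, 1.86 and 0.442 CPM in control plants. The F1 groups of this gene did not overlap and the Bd3-1 groups did.

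Bradi4g22015 ran the other way in F1, at 0.655, 0.738, 0.247, 0.470 and 0 CPM in drought plants and at 0.852, 1.51, 1.94, 0.776 and 1.05 CPM in control plants, without overlap. In Bd3-1 it was at 2.29, 3.16 and 1.57 CPM in drought plants and at 2.08, 2.37, 3.04, 2.54 and 1.99 CPM in control plants, which overlapped. Its log2 change in F1 was -1.83 (SE 0.73) and did not pass in edgeR (adjusted p = 0.104), while DESeq2 called it (log2 change -1.82, adjusted p = 0.00847) as its sixth member in F1.

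The level in the hybrid was read as the mean CPM in F1 as a percentage of that in Bd3-1 in the same treatment. An F1 plant carries 1 copy of each parental chromosome set where Bd3-1 carries its own set on both chromosomes of a pair, and the hybrid level is a measurement the selection did not use, although the Bd3-1 level in the ratio is. The median over the 48 genes was 42.8% with both treatments averaged, with quartiles of 30.7% and 52.7%. Over all genes with at least 1 CPM in Bd3-1 the median was 93.2%. Of the 48 genes, 32 were under 50%, against 4.68% of all those genes. The opposite list gave a median of 43.1% for F1 against Bd21.

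The ratio was higher in drought, with a median of 47.5% over 48 genes, than in control, with a median of 35.3% over the 46 genes with a control count in Bd3-1. Over all genes it was 96.9% in drought and 87.5% in control, so part of the gap is shared with the whole table. With TMM scaling the medians of the members were 49.2% in drought and 40.6% in control, and those of all genes 100.3% and 99.1%. Single F1 plants ranged in their median percentage of Bd3-1 in the same treatment over the genes from 36.5% to 49.8% in drought and from 22.8% to 37.0% in control, and these ranges overlap.

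Most members lay between the extremes: 35 of the 48 were between 25% and 75%, 9 were under 25% and 4 were above 100%. Among genes with at least 2 CPM in Bd3-1, the highest ratios were those of Bradi5g08290 at 257%, Bradi2g19415 at 72.4% and Bradi1g58584 at 68.0%. For Bradi1g58584 the ratio was 130% in drought and 19.7% in control. The lowest were Bradi1g71530 at 0%, Bradi4g25670 at 15.2% and Bradi2g12323 at 18.7%. Bradi2g12323 was at 2.28, 1.43, 2.01, 0 and 3.49 CPM in F1 drought plants against 14.1, 5.36 and 12.3 CPM in Bd3-1 drought plants, which do not overlap.

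The members above 100% were Bradi4g05630 at 497%, Bradi5g08290 at 257%, Bradi1g43347 at 141% and Bradi4g15110 at 125%. Bradi4g05630 was at 1.62, 1.43, 5.23, 2.27 and 0.566 CPM in F1 drought plants and at 12.1, 0, 3.35, 1.77 and 13.5 CPM in F1 control plants. The Bd3-1 levels were 0, 0.0944 and 0 CPM in drought plants and at 6.80, 0, 0, 1.35 and 0.110 CPM in control plants. Its F1 control plants alone thus spanned 0 to 13.5 CPM, and plants of both genotypes overlapped in control. The 2 genes with counts mainly under drought, Bradi5g08290 and Bradi1g43347, owe their ratios to drought plants.

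**Figure D3:**
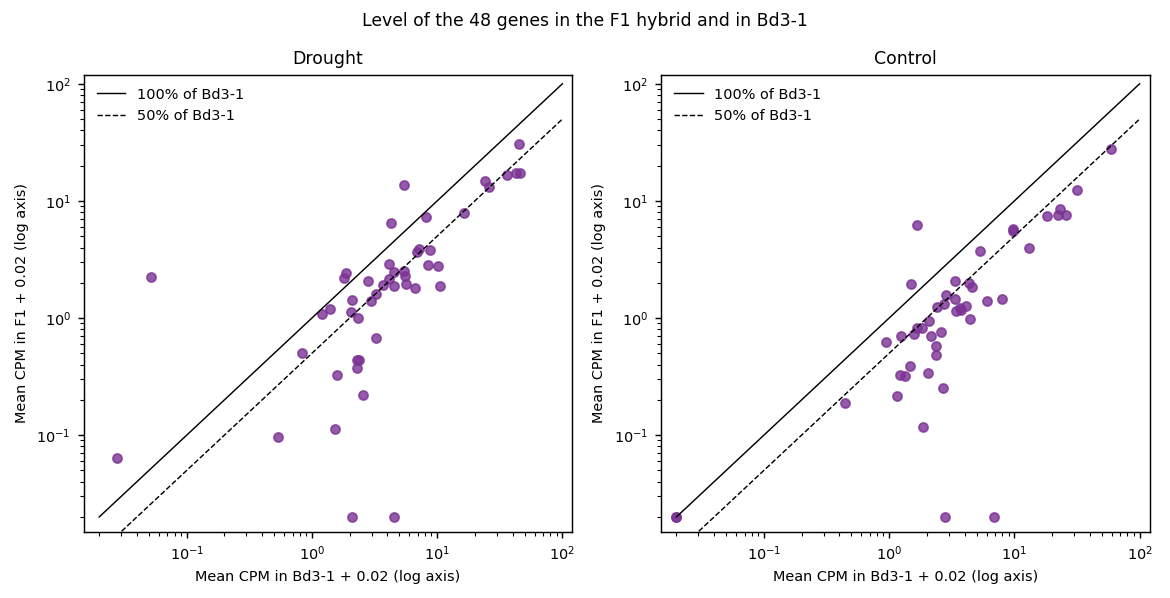
Mean CPM of the 48 genes in F1 (vertical) against Bd3-1 (horizontal), each with 0.02 added and on log axes, for drought (left) and control (right). Most points lie near or below the 50% line, where the medians of 47.5% in drought and 35.3% in control place them.

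The allele columns of the F1 plants show which parental copy the hybrid transcripts matched. For 10 of the 48 genes (20.8%) the 2 columns were equal in every library, which is how counts without a distinguishing variant were deposited, against 59.9% of all genes with at least 1 CPM in Bd3-1. The other 38 genes differed in some library, and 34 of them entered the test, in which the column of the other parent had to hold under 20% of the counts in each parent. Because the members have no Bd21 counts, only Bd3-1 plants could meet this condition for them. Left out were Bradi1g71077, Bradi4g36990, Bradi1g06970 and Bradi2g03009.

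In F1 plants the 34 genes together held 29670 counts on the Bd3-1 allele and 1168 on the Bd21 allele, or 96.2% on the Bd3-1 allele. The Bd21-allele sum includes counts split equally between the columns, which are not assigned to a parental copy. Among them were 76.5 counts of Bradi1g16151 in F1 drought replicate 5 and 80.3 of Bradi5g27695 in F1 control replicate 2. The median over the genes was 98.5%, and 26 of them had over 90%, against 1.63% of the 6455 genes tested. With the plant as a block, edgeR called 15 of the 34 genes, all higher on the Bd3-1 allele, against 5.28% of all genes tested and 2.12% of them in that direction. At an unadjusted edgeR p under 0.05 there were 29, against 15.6% of all genes tested. DESeq2 called 24 and the fit without the plant term 25, with 13 of the 15 in each. Genes with Bd21 counts had to meet the condition in Bd21 plants too, so members and all genes are not compared like for like. Selection on no Bd21 count, and entry through Bd3-1 plants alone, both favour a higher Bd3-1 allele. The direction is therefore given as a description and not as independent support.

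The Bd3-1 allele was higher in every F1 plant with counts for 22 of the 34 genes, and no plant had the Bd21 allele higher for 30. For 11 genes the F1 plants held at most 0.01 of an estimated count on the Bd21 allele, and for 10 of these exactly 0. Of the 11 genes, edgeR called 2, and DESeq2 called all but Bradi4g37013 (DESeq2 adjusted p = 0.426). The number called thus depended on the test. Bradi4g12131, with 428 counts on the Bd3-1 allele, had an edgeR adjusted p of 0.109 and a DESeq2 adjusted p of 1.05e-11. The 2 called by edgeR were Bradi4g09567, with 4825 counts on the Bd3-1 allele, at least 1608-fold above the limit of 3 counts (edgeR adjusted p = 0.0150), and Bradi1g00210, with 2774 counts, at least 925-fold above it (edgeR adjusted p = 0.0280). The third by fitted difference was Bradi3g50211, with 2211 counts on the Bd3-1 allele and 10.1 on the Bd21 allele, or 99.5% (edgeR adjusted p = 0.000155). All 10 plants had the Bd3-1 allele higher in each of these 3 genes.

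Bradi1g16151 had 97.9% of its F1 counts on the Bd3-1 allele, Bradi2g03022 95.7%, Bradi4g09250 99.4% and Bradi4g12854 99.8%. Of the 111.8 Bd21-allele counts of Bradi1g16151 in F1, 76.5 came from F1 drought replicate 5, where the 2 columns were equal and the counts are not assigned to a parental copy. Counts in Bd3-1 plants give the rate at which reads of a Bd3-1 copy were put in the Bd21 column. That rate left 99.7% of the counts of Bradi1g16151 and 92.4% of those of Bradi2g03022 on the Bd3-1 allele. In Bradi2g03022 the share on the Bd3-1 allele was thus lower in Bd3-1 plants than in the hybrid.

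In 14 of the 34 genes F1 plants had Bd21-allele counts, of more than 0.01 in sum, where Bd3-1 plants had 0, and in 9 of the 14 they came from 1 F1 plant. Some were equal splits: in F1 control replicate 4, Bradi2g12323 had 13.0 counts on each allele and Bradi4g26625 had 2.5. Equal columns are how counts without a distinguishing variant were deposited, so such counts are not assigned to a parental copy. Others were unequal, as in Bradi5g04563, with 20.2 on the Bd21 and 74.8 on the Bd3-1 allele in F1 control replicate 1. Bradi2g39410 had Bd21-allele counts in all 10 F1 plants, 3.77 to 32.7 a plant, with 1222 counts on the Bd3-1 allele and 169 on the Bd21 allele, or 87.9%. In the 8 Bd3-1 plants it had 2424 counts on the Bd3-1 allele and 0 on the Bd21 allele, and in Bd21 plants it had none. This is a gene whose reads are shared with Bradi2g39240, which was transcribed in Bd21, and the part of the shared reads in these Bd21-allele counts was not tested. Other genes with shared reads had Bd21-allele counts in Bd3-1 plants as well. Bradi5g27695, whose reads are shared with Bradi1g00370, had 85.99% on the Bd3-1 allele in F1, against 94.4% in Bd3-1 plants, and Bradi5g20082, whose reads are shared with Bradi1g00210, had 73.15% in F1, against 88.4% in Bd3-1 plants. In single F1 plants the share of Bradi5g20082 was either 54.7% to 55.3% or nearly 100%. It was also 54.96% in Bd3-1 control replicate 4, a plant with no Bd21 copy. The Bd21-allele counts of Bradi5g20082 in F1 therefore do not show transcription of the Bd21 copy.

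Bradi2g18110 stood furthest from the rest, with 58.3 counts on the Bd3-1 allele and 47.7 on the Bd21 allele in F1 plants, or 55.0%. In Bd3-1 plants all its 207 counts were on the Bd3-1 allele. The F1 counts came from 7 plants, of which 3 had the Bd3-1 allele higher and 4 the Bd21 allele, and its totals were whole numbers. In the 3 plants the share on the Bd3-1 allele was 100%. In the 4 plants it was 37.9% to 38.2%, nearly the same value at totals of 8 to 31 counts. Whether the reads of these 4 plants carried a distinguishing variant was not tested, so they do not show transcription of the Bd21 copy. It is the lowest share among the 34 genes, at low counts.

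**Figure D4:**
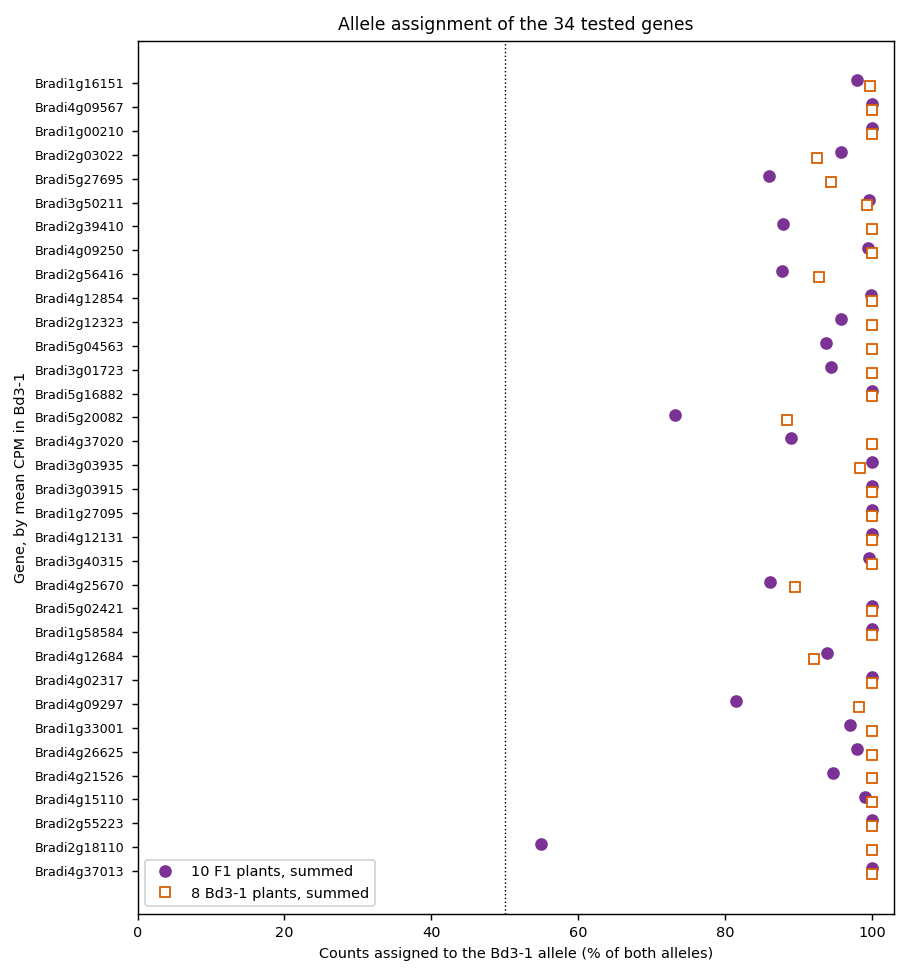
Share of counts on the Bd3-1 allele for the 34 tested genes, with F1 plants as filled circles and Bd3-1 plants as open squares, each summed over plants, and a dotted line at 50%. Most circles lie above 90%, Bradi2g18110 is the lowest at 55.0%, and Bradi2g39410 lies at 87.9% in F1 and 100.0% in Bd3-1.

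By their identifiers, which follow gene order along a chromosome, the 48 genes were spread over all 5 chromosomes. Chromosome 4 held 16 of them, or 2.92 per 1000 genes, and chromosome 5 held 7, or 2.20 per 1000. Chromosomes 1, 2 and 3 held 9, 10 and 6, or 0.956, 1.38 and 0.843 per 1000. The opposite list also had its highest densities on chromosomes 4 and 5, at 7.84 and 8.48 per 1000 genes. No coordinates were used, because the sources used here pair none with these identifiers.

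Most members had no other member as the next gene. Of the 48 genes, 4 (8.33%) had one, in 2 pairs. The share was 34.9% for the 166 genes of the opposite list with a chromosome in their identifier. That list is longer and was chosen at another depth. The number of neighbouring members under random placement was not computed, so whether members cluster was not tested. The pairs were Bradi4g37013 with Bradi4g37020 and Bradi5g02412 with Bradi5g02421. Allowing 2 other genes between members added the pairs of Bradi2g03009 with Bradi2g03022 and of Bradi3g03915 with Bradi3g03935, and joined Bradi4g36990 to the pair on chromosome 4, for 9 genes in 4 runs. In the run on chromosome 4 the genes in between, Bradi4g37000 and Bradi4g37006, also had no Bd21 count. They averaged 0.499 and 0.591 CPM in Bd3-1, below the CPM minimum.

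Genes next to each other did not have like levels in every case. Bradi4g37020 was at 3.88, 4.23 and 8.67 CPM in Bd3-1 drought plants and at 4.06, 4.70, 4.99, 0.973 and 4.08 CPM in Bd3-1 control plants. Its neighbour Bradi4g37013 was at 0.498, 0.354 and 1.57 CPM in Bd3-1 drought plants and at 0.439, 0.745, 1.26, 1.73 and 1.82 CPM in Bd3-1 control plants, and so below it in all but control replicate 4. In the other pair, Bradi5g02421 was at 3.82, 3.09 and 2.80 CPM in Bd3-1 drought plants and 2.05, 1.81, 1.95, 2.45 and 2.43 CPM in control plants, without overlap, and Bradi5g02412 at 2.65, 2.72 and 0.839 CPM in drought plants and 2.30, 1.95, 1.55, 1.10 and 1.27 CPM in control plants.

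Of the genes on either side of members, those with at least 1 CPM in Bd3-1 mostly had counts in Bd21 as well. Of 92 neighbours that were not members, 45 averaged at least 1 CPM in Bd3-1, and 31 of these were detected in all 6 Bd21 libraries. In 37 of the 45 the Bd21 mean was within 2-fold of the Bd3-1 mean, in 6 it was more than 2-fold lower and in 2 more than 2-fold higher. A further 15 neighbours had no count in either accession. Some neighbours below 1 CPM had counts in Bd3-1 and none in Bd21, such as Bradi1g58582 at 0.655 CPM and Bradi2g24252 at 0.470 CPM. Others below 1 CPM were counted in Bd21. Among these was Bradi4g09247, next to Bradi4g09250, at 0.899 CPM in Bd3-1 and 168.1 CPM in Bd21.

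The identifiers differed in another way. Of the 48 genes, 34 (70.8%) had a gene number that is not a multiple of 10, against 43.3% of all genes and 29.4% of genes with at least 1 CPM in Bd3-1. In the opposite list 123 of the 166 genes had such a number. Bradi1g16151, Bradi4g09567 and Bradi2g03022 have such numbers, and Bradi1g00210 does not.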

How the data were processed

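Stranded poly(A) libraries of 24 plants were sequenced by the authors, who called Bd3-1 variants on the Bd21 genome, put them into a transcriptome of both alleles (g2gtools) and deposited the estimated counts of emase for 32439 genes, in a Bd21-allele and a Bd3-1-allele column for each library (48 columns). The submitters' processing notes name Trimmomatic 0.38, cutadapt 3.7, Bowtie 1.2.2, STAR 2.6.1b and GATK 4.2.5.0. Reads that fit several genes or both alleles were divided by emase, which gives fractional counts, and reads of Bd3-1 copies without a model in the reference could be put to another gene or lost. The members and lists were chosen with earlier results of these data known.

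Groups came from the sample labels. Both allele columns were summed per gene. Counts were rounded and tested with edgeR 4.0.16 in R 4.3.3 (quasi-likelihood, TMM, genes above 0 in more than 10 libraries, 1 coefficient for each of 6 groups, Benjamini-Hochberg adjustment over 22629 genes, threshold 0.05, or 0.1 for the difference between responses). F1 alleles were tested with a plant block over 6455 genes. The SE given with an edgeR log2 change was derived as its absolute value divided by the square root of the F statistic of the test. DESeq2 1.42.0 and the other settings of the closing section were alternatives. The fits were tested on simulated data. Figures were drawn with matplotlib 3.10.9 in Python 3.11.15.

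Genes named were the 10 members with the highest CPM in Bd3-1, members called, up to 3 at each end of the difference between responses, of the F1 ratio (at least 2 CPM) and of the allele difference, runs of adjacent members, and genes at the borders of the selection. Other members were named after their values were seen. None of the identifiers matched the 31335 genes of the RefSeq table (0 matches), so no sequence is shown.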

Additional observations from a re-analysis of the deposited data

Results flagged for a closer look

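In groups of 5 plants, a plant was singled out where its gap to the nearest other plant took up most of the range of the group. Over 25 named members 69 such groups were examined and 6 had such a plant. The limit, Dixon's critical value, would single out about 1 in 20 groups of normally distributed values, which CPM values with many zeros are not. Bradi1g71530 was at 33.8 CPM in Bd3-1 control replicate 5 and at no more than 0.230 CPM in the other Bd3-1 control plants. Bradi4g37020 was at 0.973 CPM in Bd3-1 control replicate 4 and at 4.06 to 4.99 CPM in the others. Bradi4g05630 was at 6.80 CPM in Bd3-1 control replicate 1 and at no more than 1.35 CPM in the others. Bradi1g43347 was at 0.681 CPM in F1 control replicate 3 and at no more than 0.155 CPM in the others. Bradi5g02412 was at 2.51 CPM and Bradi4g37013 at 1.64 CPM in F1 drought replicate 4, with the nearest other F1 drought plants at 1.34 and 0.461 CPM.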

How the results depend on the processing

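Over all alternatives no result changed direction. A minimum of 0.5 CPM gave 87 members, and leaving out 1 parental library gave 48 to 61, the highest without Bd21 drought replicate 1. An alternative chosen after seeing the data, without both of the 2 shallowest Bd21 libraries, gave 51, of which 48 were the members. Allowing 2 other genes between members put 9 in runs. In Bd3-1 the fit without a filter and the filterByExpr filter each called 1 member, Bradi5g08290, which the selection admitted through its Bd3-1 drought plants alone. Leaving out a library gave 0 to 0 calls in Bd3-1. In F1 leaving out a library gave 3 to 5 calls, with 3 without F1 drought replicate 1, 2 or 5 or F1 control replicate 1. DESeq2 called 6 members in F1, the sixth Bradi4g22015, and gave 35 of the 42 no adjusted p in Bd3-1. The difference of responses stayed at 0 to 0. For alleles, DESeq2 called 24 and the fit with no replicate block (no plant term) 25, and leaving out a plant gave 11 to 15. The F1 level was 40.5% to 44.8% without 1 library. Over the whole table DESeq2 called 3.21% of genes in Bd3-1 where edgeR called 0.72%, the fit of the genotypes compared alone 0.23% and the replicate block 0.278%. Same-numbered plants correlated at -0.0239 to 0.121 in F1 and -0.0161 to 0.0665 in Bd3-1, so the numbers share no pairing, and with the replicate block 0 members were called in Bd3-1, 5 in F1 and 0 for the difference. The Bd21 depth limits how firmly the absence of weak members can be stated.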
